A study of Mus musculus with 45 samples.

Results

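Of the 184964 open chromatin regions (OCRs) counted by ATACseq in this series of mouse embryonic stem cells, 1192 kept their accessibility at 2 h of OCT4 depletion and stood at 0.5 of the untreated level or less at 24 h, while staying open at 24 h of SOX2 depletion. These late-OCT4 OCRs were chosen by 4 measured values. The OCT4-FKBP line had to hold a mean of at least 4 CPM in untreated cells (NT), a 2H/NT ratio of at least 0.8 and a 24H/NT ratio of at most 0.5, and the SOX2-FKBP line a 24H/NT ratio of at least 0.8. CPM, the accessibility level, is the count in a peak divided by the library's total outside mitochondrial peaks, times 1000000, and ratios are of means over replicates. The first condition alone was met by 60343 OCRs, of which the 1192 are 1.98%.

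In the 3 degron lines, OCT4, SOX2 or NANOG carries an FKBP tag at its own gene, and the compound dTAG-13 directs the fusion protein to degradation. SOX2-FKBP and NANOG-FKBP were made in E14 cells and OCT4-FKBP in V6.5 cells and obtained from another laboratory, so that a difference between the OCT4 and SOX2 lines cannot be told apart from a difference between the parental cells. All lines grew in serum-free medium with LIF and inhibitors of MEK and GSK3, and NT cells received the solvent DMSO. The dose was 500 nM. For OCT4-FKBP there were 2 libraries of NT and 2 of each of the times 2, 6 and 24 h, and for SOX2-FKBP also 2 each of 0.5 and 1 h. NANOG-FKBP had 2 libraries of NT and 3 of each later time. The lines were kept as edited clones, and the labels do not say whether replicates are separate cultures, so p-values measure only the spread between these libraries, which may be technical.

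OCT4 and SOX2 often bind DNA side by side, and an enhancer that needs them for its accessibility can close within hours of their removal. Esrrb, Klf4, Tfcp2l1, Nr5a2 and other factors of naive pluripotency, the state of the early epiblast, sit further along the same network and bind sequences of their own. LIF acts through STAT3, and the FGF-ERK pathway, which the MEK inhibitor holds down, drives exit from the naive state.

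The sequence around the summits of 8 late-OCT4 OCRs is shown because it carries matches of the KLF family or of the nuclear receptors ESRRB and NR5A2, 2 of 14 motifs among 24 searched whose share at the summit was higher in the set than over all OCRs of at least 4 CPM. Each window is 101 bases of mm10, plus strand, centred on the summit, the position of the highest signal in the peak. Capitals mark a match to CAAGGTCA (ESRRB and NR5A2) or GGGNGTGG (KLF) on either strand. None of the 8 windows holds the POU octamer ATGCNAAT bound by OCT4.
Plec intron, chr15:76187010-76187110: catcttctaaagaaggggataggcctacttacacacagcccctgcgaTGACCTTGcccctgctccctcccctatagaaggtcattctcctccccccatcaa
Etv5 intron, chr16:22413016-22413116: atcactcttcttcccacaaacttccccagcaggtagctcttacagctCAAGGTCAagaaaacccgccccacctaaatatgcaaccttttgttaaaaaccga
Esrrb start, chr12:86504460-86504560: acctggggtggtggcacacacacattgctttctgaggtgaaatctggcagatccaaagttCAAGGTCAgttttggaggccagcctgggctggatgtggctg
Tfcp2l1 intron, chr1:118633762-118633862: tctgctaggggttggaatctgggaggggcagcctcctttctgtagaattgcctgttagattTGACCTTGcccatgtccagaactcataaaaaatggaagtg
Upstream of Tmem132b, chr5:125523491-125523591: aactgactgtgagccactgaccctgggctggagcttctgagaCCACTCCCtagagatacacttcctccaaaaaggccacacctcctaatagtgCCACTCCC
Downstream of Gbx2, chr1:89918227-89918327: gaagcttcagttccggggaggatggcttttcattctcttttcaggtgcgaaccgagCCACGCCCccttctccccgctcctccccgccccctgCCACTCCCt
Eif4ebp2 intron near Nodal, chr10:61440391-61440491: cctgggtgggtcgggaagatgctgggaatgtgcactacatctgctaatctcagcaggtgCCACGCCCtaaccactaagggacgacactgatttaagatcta
Manba intron, chr3:135562252-135562352: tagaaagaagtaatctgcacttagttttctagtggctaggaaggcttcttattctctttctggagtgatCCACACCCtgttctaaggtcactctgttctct

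By their selection, these OCRs had a median level in OCT4-FKBP of 7.61 CPM at NT, still of 8.31 and 7.07 CPM at 2 and 6 h, and of 3.09 CPM at 24 h. The median ratio to the NT mean was 0.955 and 1.07 in the libraries at 2 h, 0.820 and 0.917 at 6 h, and 0.361 and 0.465 at 24 h. Most of the fall therefore lay between 6 and 24 h, when the median 24H/6H ratio was 0.472. These times share libraries with the rule and are given as a description. At 6 h, which the rule did not use, 428 of the OCRs (35.9%) stood at or below 0.8 of NT and 8 at or below 0.5, beside 26.2% and 11.5% of the 60343. In edgeR's quasi-likelihood test over 166428 OCRs (Benjamini-Hochberg adjustment, threshold 0.05), 23 of the 1192 were lower at 6 h than at NT and 16 higher, where 7.97% and 4.11% of all OCRs tested were called. Blocked on the replicate number, the test called 135 (11.3%) lower at 6 h, beside 10.9% of all OCRs tested and 17.2% of those of at least 4 CPM, and 55 (4.61%) higher, beside 8.8% of all. Unblocked and without replicate 1 or replicate 2 of OCT4-FKBP, it called 6 and 2 lower, from 1 library a group whose spread is taken from the other groups. With all libraries it called 1087 lower at 24 h (12.7% of all OCRs), a contrast that chose them and from which nothing is read. In these bulk samples, lower accessibility in every cell and fewer cells with the region open cannot be told apart.

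**Figure D1:**
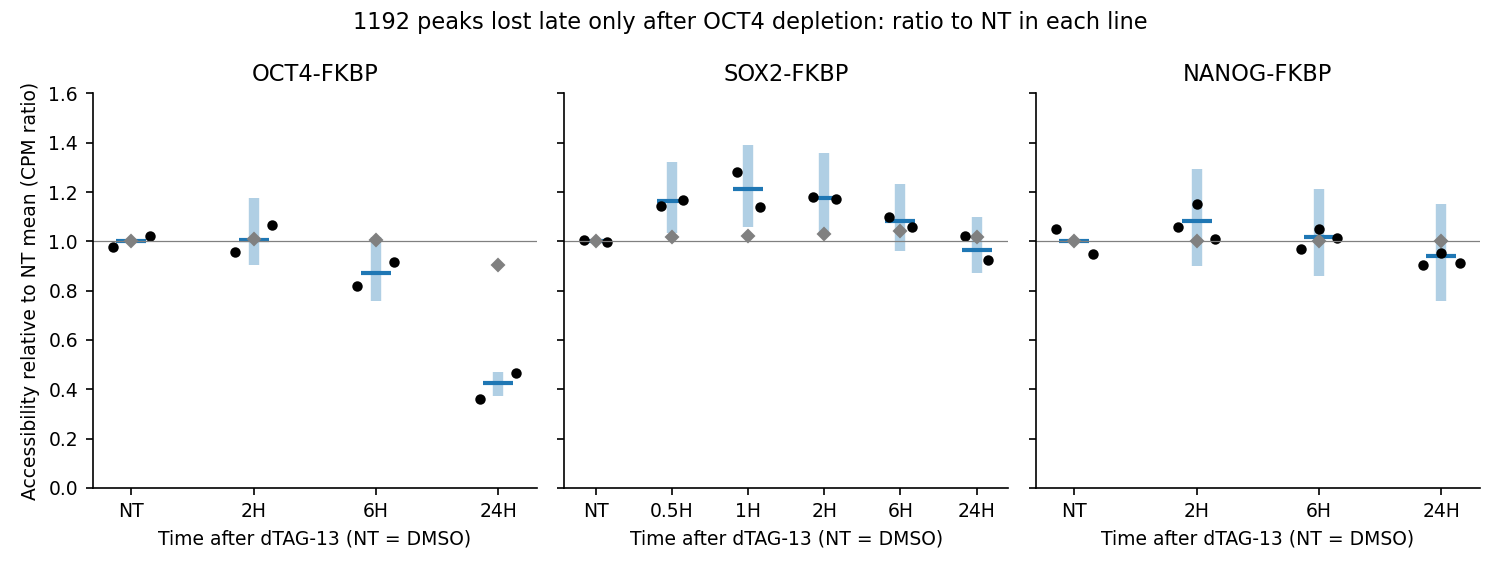
Accessibility of the 1192 late-OCT4 OCRs relative to the NT mean of each line (vertical axis, CPM ratio) by time of dTAG-13. Dots are medians in single libraries, dashes the median of the group ratio with its quartiles as a bar, and grey diamonds the median of the 60343 OCRs with OCT4-FKBP NT CPM of at least 4; the OCT4-FKBP libraries at 24 h lie at 0.361 and 0.465, and the NANOG-FKBP libraries at 24 h between 0.903 and 0.953.

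The set is bounded by counts that the replicates do not fix tightly. In the library of replicate 1 at 24 h, 1076 of the OCRs were at or below 0.5 of the NT mean, in that of replicate 2 729 were, and 613 (51.4%) were in both. When each condition had to hold in replicate 1 and in replicate 2 separately, 278 of the 1192 remained. The 3 OCRs just inside each limit had an NT CPM of 4.00 to 4.01, a 2H/NT of 0.801, a 24H/NT of 0.4997 to 0.5000 and a SOX2-FKBP 24H/NT of 0.80, and the 3 just outside had 3.98 to 3.99, 0.799 to 0.7996, 0.5000 to 0.5002 and 0.799. A further 3425 OCRs met every condition but the one on SOX2-FKBP, and 1024 every condition but the one at 2 h.

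GC content moved with these ratios over the 60343 OCRs. From the lowest to the highest decile of GC content, the median OCT4-FKBP 24H/NT went from 0.492 to 1.42, the SOX2-FKBP 24H/NT from 0.519 to 1.26 and the OCT4-FKBP 2H/NT from 0.715 to 1.09. Late-OCT4 OCRs were 0.796% of the lowest decile, 3.14% of the seventh and 0.282% of the highest, and their median GC content was 51.8%, beside 51.6% of the 60343. After each ratio was divided by the median of its GC decile, 820 OCRs met the rule and 510 of them were among the 1192. The part of GC content in the loss of single OCRs was not tested.

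**Figure D2:**
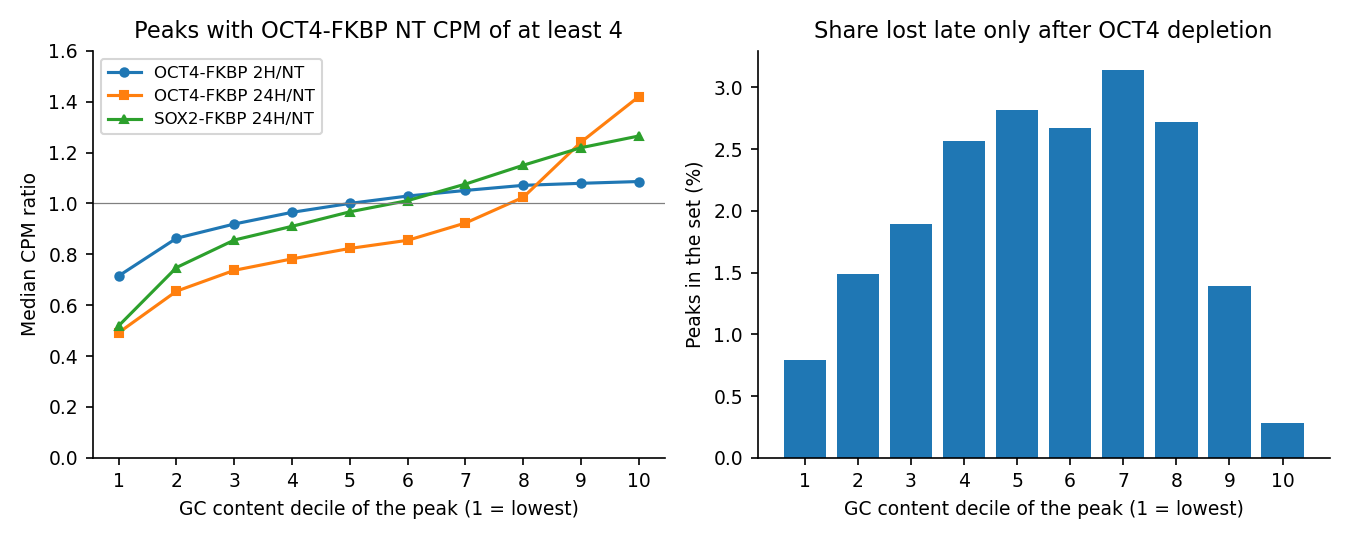
Left, median CPM ratios used by the rule (vertical axis) in deciles of GC content of the peak (horizontal axis, 1 = lowest) over the 60343 OCRs; right, the percentage of each decile that is a late-OCT4 OCR. The OCT4-FKBP 24H/NT median runs from 0.492 to 1.42, and the share of late-OCT4 OCRs is highest, at 3.14%, in the seventh decile.

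Esrrb, which codes for an orphan nuclear receptor that holds cells in the naive state, was the protein-coding gene nearest to the most late-OCT4 OCRs, with 5 of its 34 OCRs of at least 4 CPM in NT. The most accessible of them covers a start of the gene (chr12:86503775-86504878, summit 101 bp past the start, in an exon). In OCT4-FKBP it held 53.1 and 50.7 CPM at NT, 48.1 and 54.2 at 2 h, 40.2 and 47.8 at 6 h, and 6.50 and 15.9 at 24 h. The 24H/NT ratio, by which the OCR was chosen, was 0.216, and the libraries at 6 h stood below those at NT. In SOX2-FKBP the same OCR had 46.0 and 48.9 CPM at NT and 42.8 and 36.0 at 24 h. In NANOG-FKBP it had 60.2 and 52.2 at NT and 43.5, 73.1 and 44.2 at 24 h, groups that overlap (log2 fold change -0.07, standard error 0.26, adjusted p = 0.97 in edgeR's test).

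The other 4 Esrrb OCRs, named after their values were seen, lie inside the gene and were less accessible, with NT means of 6.95 to 9.87 CPM. Going along the chromosome, their 24H/NT ratios in OCT4-FKBP were 0.417 (chr12:86450803-86451302, intron), 0.373 (chr12:86481878-86482340, intron), 0.359 (chr12:86513508-86514677, exon) and 0.256 (chr12:86519515-86520380, UTR). The first of them was the 1 Esrrb OCR that passed the test after NANOG depletion. It had 11.7 and 9.48 CPM in NANOG-FKBP NT and 5.08, 4.79 and 3.83 at 24 h (log2 fold change -1.22, standard error 0.32, adjusted p = 0.0278 in edgeR's test). All 3 libraries at 24 h lay below both NT libraries there, whereas SOX2-FKBP had 10.3 and 7.62 at NT and 12.1 and 8.32 at 24 h.

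**Figure D3:**
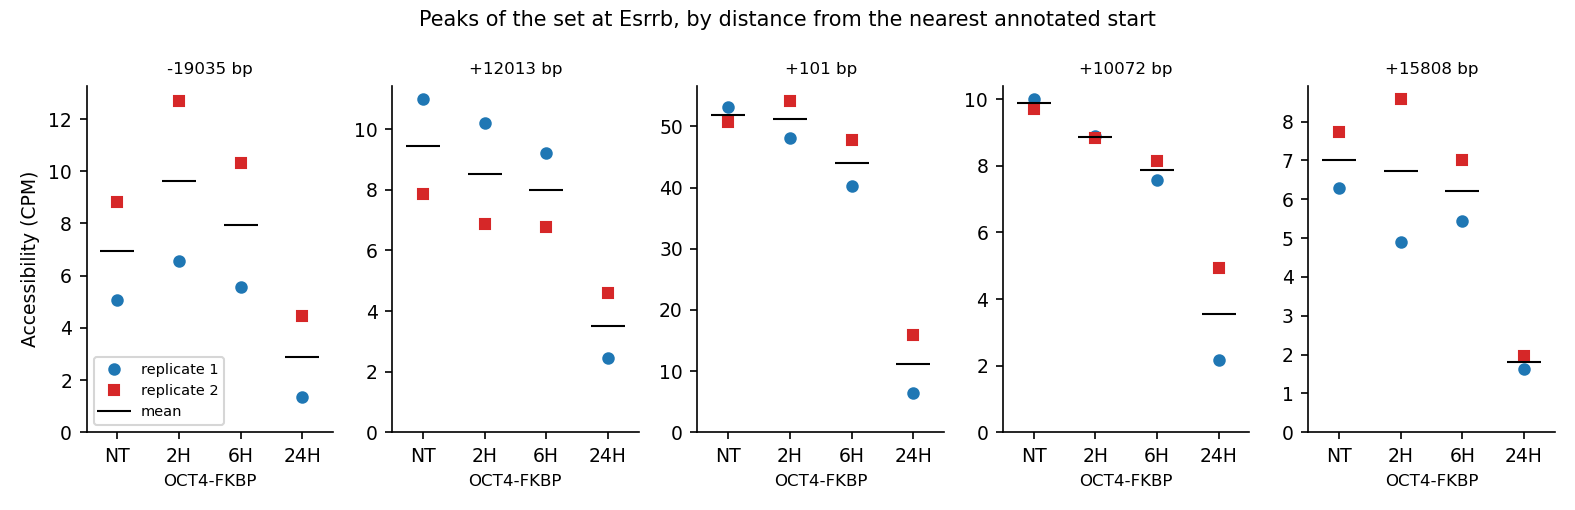
CPM (vertical axis) of the 5 late-OCT4 OCRs at Esrrb in the 8 OCT4-FKBP libraries by time, ordered along the chromosome and titled by the distance of the summit from the nearest annotated start. Circles are replicate 1, squares replicate 2 and dashes their mean; at the start of the gene the libraries at 24 h held 6.50 and 15.9 CPM, and the 6 others between 40.2 and 54.2.

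Among lists of genes of pluripotency, early lineages and signalling, late-OCT4 OCRs within 100 kb of a start were looked up for 121 genes. Of the 1854 OCRs of at least 4 CPM there, 51 (2.75%) were late-OCT4 OCRs, and 38 of the genes had at least 1. For naive pluripotency it was 16 of 331 OCRs (4.83%) at 9 of 17 genes, for FGF-ERK feedback 8 of 184 (4.35%) at 5 of 12, for trophectoderm 6 of 218 (2.75%) at 7 of 16, and for core pluripotency 8 of 340 (2.35%) at 6 of 18. The LIF-STAT3 list had 6 of 256 (2.34%), the formative and primed list 4 of 213 (1.88%), the primitive endoderm list 2 of 132 (1.52%) and the Wnt list 2 of 223 (0.897%). The share over all 60343 was 1.98%. Of the 16 OCRs of the naive list, 5 lay within 100 kb of a start of Esrrb and 3 within 100 kb of a start of Sox15.

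Among core factors, Pou5f1, the gene of OCT4 itself, had a late-OCT4 OCR 17965 bp from a start (chr17:35526256-35527072, intron of a neighbouring gene), with 15.8 and 9.71 CPM at NT, 14 and 10.1 at 6 h and 5.15 and 4.93 at 24 h. The OCR listed for Lin28a, an RNA-binding protein of pluripotent cells, lay 43235 bp upstream (chr4:134061476-134062595). It is in an intron of Crybg2, 1261 bp from a start of that gene. Its values were 26.2 and 23.1 at NT and 9.49 and 11.8 at 24 h. Both OCRs were near their NT level at 6 h. Near Fgf4, the growth factor that embryonic stem cells make for themselves, the OCR had 4.64 and 4.83 CPM at NT and 0.813 and 1.97 at 24 h.

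Other genes of the naive list had smaller peaks. Tfcp2l1, a naive transcription factor, had a late-OCT4 OCR in its first part (chr1:118633470-118634251, intron) with 7.38 and 13 CPM at NT and 2.44 and 6.08 at 24 h, with replicate 2 at 24 h not far below replicate 1 at NT. At Nr5a2, a nuclear receptor related in its DNA sequence preference to ESRRB, the OCR 1894 bp upstream of a start (chr1:136951181-136951716, intron) had 11.6 and 11.4 CPM at NT and 3.79 and 4.60 at 24 h. At 6 h its values were 12.9 and 13.9, above both at NT. The OCR 3458 bp upstream of Dppa5a, a marker of pluripotent cells, went from 6.05 and 8.90 CPM to 1.08 and 1.64. Near the naive genes Tbx3, Prdm14 and Dppa3, the NT means were 4.78 to 6.80 CPM and the 24H/NT ratios 0.445 to 0.466.

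In the Etv5 gene, the OCR (chr16:22412560-22413652, intron) had 30.4 and 30.2 CPM at NT and 10.8 and 18.4 at 24 h. Etv4 and Etv5 code for ETS factors that are induced by ERK. They were counted in the formative and primed list (1.88%), not in the FGF-ERK feedback list. The OCR 1666 bp upstream of Etv4 (chr11:101786471-101787710) had 20.0 and 24.0 CPM at NT, 13 and 15.4 at 6 h and 6.50 and 8.21 at 24 h. It was already below NT in both libraries at 6 h, which the Etv5 OCR also was (24.4 and 27.3). Spry1, a feedback inhibitor of receptor tyrosine kinase signalling, is in the FGF-ERK feedback list. The OCR 47304 bp from it had 24.0 and 25.5 CPM at NT, 34.1 and 34.4 at 2 h, 26.5 and 28.5 at 6 h and 9.62 and 12.5 at 24 h. The OCRs named for the other genes of that list, Spry4, Egr1, Fosl1 and Grb2, were smaller. Their NT means were 4.59 to 6.39 CPM, they lay 20636 to 91215 bp from a start, and their 24H/NT ratios were 0.33 to 0.477. Lifr, the LIF receptor subunit, is in the LIF-STAT3 list. The OCR 3383 bp past a start of Lifr (chr15:7132762-7133119, intron) had 16.8 and 14.9 CPM at NT, 12.3 and 16 at 6 h and 4.61 and 4.76 at 24 h.

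Genes of the first lineages were looked up within 100 kb. The share of the set there was 2.75% for trophectoderm and 1.52% for primitive endoderm, beside 1.98% of the 60343. The OCRs listed for Tead4, Id2 and Fgfr2 lay 11801 to 17987 bp from a start. Those listed for Krt7, Krt8 and Hand1 lay 81613 to 85704 bp away, that of Hand1 inside Galnt10 and that of Krt8 inside Eif4b. The OCRs listed for the trophectoderm genes Tead4, Krt7, Krt8, Krt18, Hand1, Id2 and Fgfr2 had NT means of 4.61 to 9.20 CPM. Their 24H/NT ratios were 0.302 to 0.472, with 1 OCR shared by Krt8 and Krt18. Near the primitive endoderm factors Sox7 and Hnf4a the NT means were 8.23 and 7.55 CPM and the ratios 0.416 and 0.307.

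Downstream of Sox2 lies a distal region known as an enhancer of that gene in embryonic stem cells. A late-OCT4 OCR 110894 bp past the Sox2 start (chr3:34759938-34761623), outside the 100 kb limit and named after its values were seen, had 50.4 and 57.1 CPM at NT, 64.4 and 56.9 at 6 h and 27 and 23.3 at 24 h in OCT4-FKBP. In SOX2-FKBP it had 50.8 and 43.6 at NT and 46.9 and 41.4 at 24 h, which overlap. In NANOG-FKBP NT it had 62.7 and 53.9 CPM, and 56.2, 93.2 and 73.6 at 24 h (log2 fold change 0.36, standard error 0.23, adjusted p = 0.628 in edgeR's test).

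The lowest 24H/NT ratio among OCRs of at least 10 CPM was 0.137, in an intron of Plec (chr15:76186558-76187617), the gene of the cytoskeletal linker plectin. This OCR had 22.3 and 19.4 CPM at NT, 35.8 and 33.8 at 2 h, 19.3 and 19.5 at 6 h and 2.44 and 3.29 at 24 h. It was above NT in both libraries at 2 h and near it at 6 h. Other OCRs with low ratios, near Tmem132b, Tpst2, Ckap4 and Gm10260, had 24H/NT ratios of 0.174 to 0.201 and 6H/NT ratios of 0.442 to 0.962, so that the OCR near Tmem132b was already below 0.5 of NT at 6 h and that near Gm10260 close to NT.

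Of the 6 most accessible late-OCT4 OCRs, 3 lay within 2 kb of the end of a protein-coding gene, and the OCT4-FKBP replicates stood apart in 5 of the 6. The OCR with the highest NT level (chr6:125160092-125162181) has its summit 425 bp past the end of Gapdh, in a UTR of Iffo1. It had 220 and 139 CPM at NT, 266 and 147 at 2 h, 252 and 152 at 6 h and 78.3 and 69.2 at 24 h. Gapdh is a glycolytic gene transcribed in every cell. Replicate 1 was higher than replicate 2 by a wide margin until 6 h, and at 24 h they were close. By Rpl3, the gene of a ribosomal protein (chr15:80075058-80077478, 1147 bp past its end), the values were 234 and 105 at NT and 72.9 and 62.6 at 24 h. In an intron of Hspa8, a constitutive chaperone (chr9:40806308-40808759), they were 160 and 69.0 at NT and 56.1 and 43.5 at 24 h. In NANOG-FKBP the same Hspa8 OCR had 35.2 and 60.3 CPM at NT, and 45.2, 180 and 63.1 at 24 h, replicate 2 again apart from the rest.

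Gene ends were therefore looked at across the set, after these values were seen. The summit was within 2 kb of the end of a protein-coding gene in 167 of the 1192 (14%), beside 8.81% of the 60343, 11.8% of steady OCRs, 3.83% of the OCRs lost late in both lines and 6.67% of those lost early after OCT4 depletion. Above 30 CPM in NT it was 21 of 71 (29.6%), beside 12.3% of the 60343 and 18.9% of steady OCRs above the same level. In those 21 the median ratio of replicate 1 to replicate 2 was 1.59 at NT and 1.12 at 24 h, and in the other 50 OCRs above 30 CPM it was 1.08 and 0.785. Without the OCRs at gene ends, 1025 remained. Whether the difference between these replicates has a part in the loss at gene ends was not tested.

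**Figure D4:**
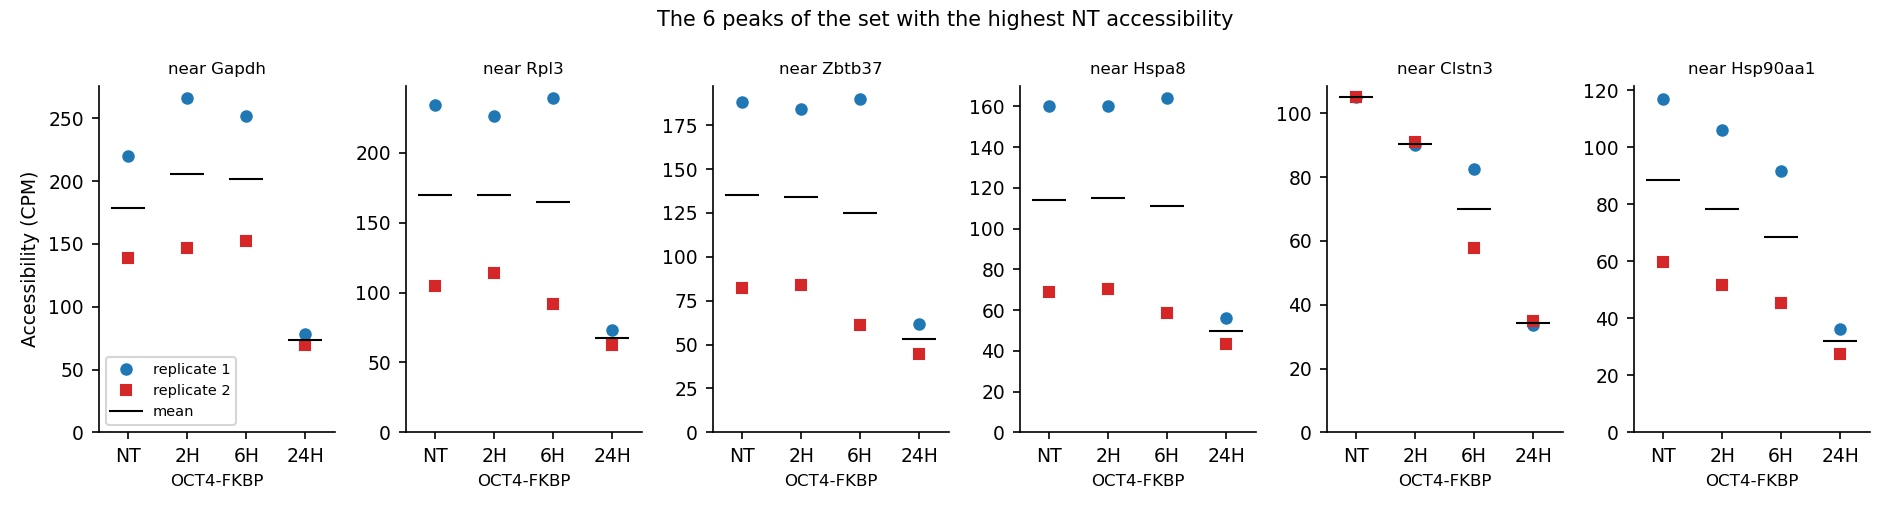
CPM (vertical axis) of the 6 late-OCT4 OCRs with the highest NT level in the 8 OCT4-FKBP libraries by time, titled by the nearest protein-coding gene. Circles are replicate 1, squares replicate 2 and dashes their mean; by Gapdh replicate 1 held 220 and replicate 2 139 CPM at NT, and 78.3 and 69.2 at 24 h, while the OCR near Clstn3 had 105 in both NT libraries.

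By position, 609 of the late-OCT4 OCRs (51.1%) had their summit in an intron, 397 (33.3%) between genes, 102 (8.56%) in an exon and 84 (7.05%) in a UTR. A transcription start lay within 500 bp of 129 summits (10.8%), beside 27% of the 60343, 28.5% of steady OCRs and 4.30% of those lost late in both lines. Steady OCRs are the 9128 whose 3 ratios all lay between 0.8 and its reciprocal, and OCRs lost late in both lines are the 1882 with the OCT4-FKBP pattern of the rule and a SOX2-FKBP 24H/NT of at most 0.5. The 129 at starts and the 1063 elsewhere had like medians, 0.896 and 0.870 for OCT4-FKBP 6H/NT and 0.429 and 0.425 for 24H/NT. The most accessible with a summit at a protein-coding start was by B3galt4, also 578 bp past the end of the ribosomal gene Rps18, with 105 and 60.6 CPM at NT and 47.3 and 35 at 24 h. By Spats1 (chr17:45473483-45475343) the replicates were closer, with 56.6 and 46.9 CPM at NT, 51.2 and 52.2 at 6 h and 18.4 and 21.4 at 24 h.

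Late-OCT4 OCRs were spread over the genome. They had 1023 different nearest protein-coding genes, 881 of them with 1 OCR of the set, and 340 OCRs (28.5%) had another within 50 kb. Chromosome 11 held 139 (2.92% of its OCRs of at least 4 CPM), chromosome 4 109 and chromosome 5 103, and chromosome X 12 (1.15%). Their median width was 977 bp and the fold enrichment that the authors' peak caller gave them 4.40, beside 1117 bp and 6.54 in the 60343.

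The sequence at the summit was compared with that of the early and the shared losses. Within 200 bp at the summit, a KLF match (GGGNGTGG) was present in 282 (23.7%), beside 15.6% of the 60343, 12.0% of steady OCRs, 20.7% of those lost late in both lines and 13.1% of all 184798 OCRs with sequence. Among the 360 OCRs lost early, which stood at 0.5 of NT or less already at 2 h of OCT4 depletion and stayed at 0.8 or more in SOX2-FKBP at 24 h, it was 13.3%. Over the whole peak the KLF share was 54.6%, beside 48.4% of the 60343, so that the difference depended on the window. The ESRRB and NR5A2 match (CAAGGTCA) was present at the summit in 75 (6.29%), beside 3.46%, 1.64%, 9.73% and 4.25% in the same order and 6.11% of the OCRs lost early, and over the whole peak in 16.4%, beside 12% of the 60343. For the POU octamer (ATGCNAAT) it was 47 (3.94%) at the summit, beside 4.04% of the 60343 and 30.8% of the OCRs lost early. The share of the octamer was thus near that of the 60343. All of these are descriptions of matched letters, both strands searched, and no test was made.

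**Figure D5:**
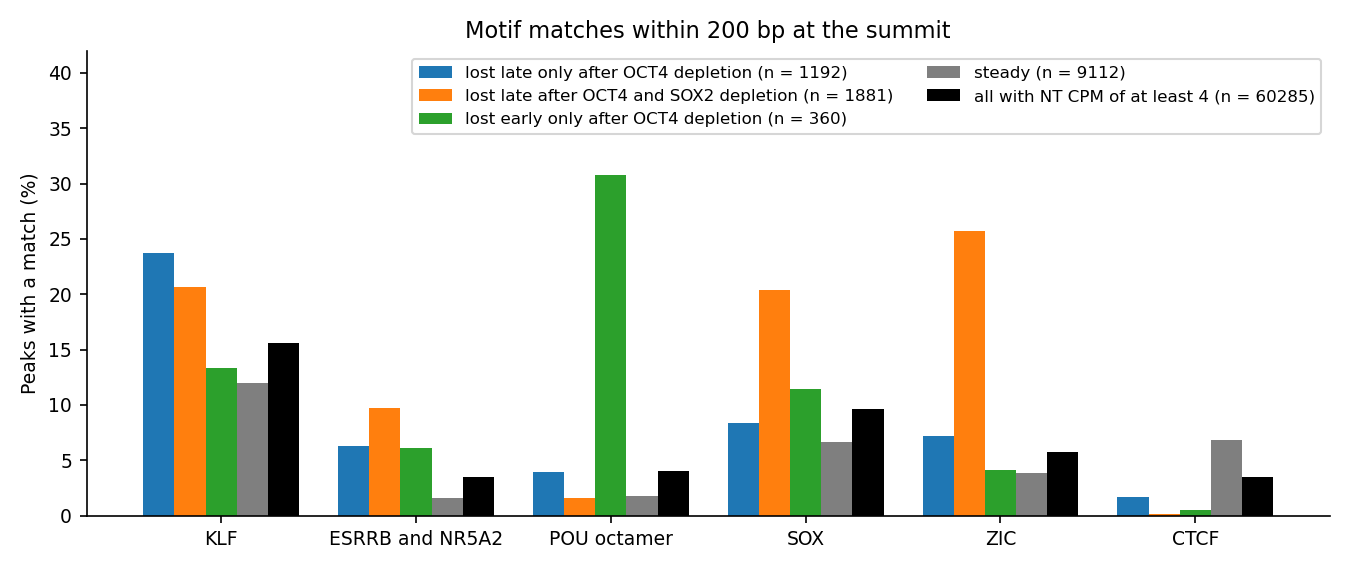
Percentage of OCRs (vertical axis) with a match to each motif within 200 bp at the summit, in the late-OCT4 OCRs, 3 other classes of OCR and all OCRs of at least 4 CPM in OCT4-FKBP NT; numbers in the key are OCRs with sequence. The KLF bar is at 23.7% in the late-OCT4 OCRs and 15.6% in all, and the POU octamer bar at 3.94% and 4.04%, with 30.8% in OCRs lost early after OCT4 depletion.

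Of the 24 motifs searched, 14 had a higher share at the summit in the set than in the 60343, 9 a lower share and 1 the same, and over the whole peak 12 were higher and 12 lower. SOX (CATTGT) was found at the summit in 8.39% of the late-OCT4 OCRs, beside 9.6% of the 60343 and 20.4% of those lost late in both lines. For ZIC (CCTGCTGNG) the shares were 7.21%, 5.74% and 25.7%. Less common matches were also higher at the summit in the set than in the 60343, with the AGATAAG pattern of factors such as Gata4 at 2.6% and 1.49%, TBX (AGGTGTGA) at 1.93% and 1.02%, GRHL (AACCNGTT) at 2.68% and 1.7%, and TEAD (ACATTCC) at 5.29% and 3.86%. Over the whole peak they were 11.2% and 10.8%, 6.63% and 5.54%, 9.73% and 8.75%, and 15.3% and 16.3%, so that TEAD was lower in the set. In OCRs lost early the summit shares were 0.556%, 2.5%, 0.833% and 10.3% in the same order. The SOX-POU composite core (TTGTNATGC), which shares letters with the SOX and octamer patterns, was found at the summit in 5 of the 1192 (0.419%). It was found in 1.22% of the 60343, 0.957% of those lost late in both lines and 1.39% of those lost early. CTCF (AGNGGGCGC) was found in 1.68% beside 3.5% of the 60343, and NRF1 (GCGCANGCG), a factor of promoters, in 0.587% beside 2.45%. The TFCP2L1 pattern, CCAG and ACCAG with 5 bases of any kind between them, was found in 16 (1.34%), beside 0.728%. Away from starts the KLF share was 24.6% in the set and 15.6% over the 44006 OCRs of at least 4 CPM there. Among the 278 that met the rule in each replicate it was 23.0%, and among the 820 of the GC-corrected rule 22.8%. For ESRRB and NR5A2 the summit share away from starts was 6.3% in the set and 4.37% over the 44006. It was 5.4% among the 278 and 5.0% among the 820, below the 6.29% of the whole set. In the 282 OCRs with a KLF match at the summit, the median OCT4-FKBP 6H/NT was 0.828, beside 0.887 in the other 910, and the median 24H/NT was 0.430 and 0.424.

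SOX2 depletion was followed in the same OCRs by a higher level in the first hours. The median ratio to the SOX2-FKBP NT mean was 1.14 and 1.17 in the libraries at 0.5 h, 1.28 and 1.14 at 1 h, 1.18 and 1.17 at 2 h, 1.1 and 1.06 at 6 h, and 1.02 and 0.925 at 24 h. Every library from 0.5 to 6 h was thus above 1, and the medians of the 60343 at these times lay between 1.02 and 1.04. At 2 h both libraries lay above both NT libraries in 577 of the 1192 (48.4%), beside 28.4% of the 60343. These ratios share the NT libraries with the rule, which required a 24H/NT of at least 0.8, and are given as a description. The comparison of 6 h with 2 h shares no library with it. There edgeR called 0 of the 1192 lower and 0 higher, as for all OCRs tested (0.0% and 0.0%), and DESeq2 also called 0 in either direction. At an unadjusted p under 0.05, 30 (2.52%) were lower and 1 higher, beside 2.49% lower of the 60332 tested among the 60343. The median log2 fold change was -0.10, beside 0.00, and in 382 OCRs (32.0%) both libraries at 6 h lay below both at 2 h, beside 22.0%.

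NANOG depletion asks whether the late-OCT4 OCRs need the third factor of the core network, and none of its libraries entered the rule. Most of them did not pass the test. At 2 h, 13 of the 1192 were lower than at NT and 1 higher (0.94% and 0.0156% of all OCRs tested), and at 6 h 17 were lower and 1 higher (1.09% and 0.0355%). At 24 h it was 55 (4.61%) lower and 4 higher, where 2.26% and 0.284% of all OCRs tested and 3.79% and 0.312% of the 60332 of at least 4 CPM were called. The share at 24 h was thus somewhat above that of the 60332, which are not of like level or position. Farther than 500 bp from a start, 52 of the 1063 OCRs of the set (4.89%) were lower. Of the OCRs of at least 4 CPM there, 5.01% were lower, so that away from starts the set was not above them. The median NANOG-FKBP NT level was 6.48 CPM in the set and 8.53 in OCRs of at least 4 CPM. With the replicate block, 8.56% of the set were lower and 1.51% higher, beside 6.09% and 1.79%. At an unadjusted p under 0.05 in the unblocked test, 168 (14.1%) were lower and 37 higher, beside 9.69% lower of the 60332. The median log2 fold change was -0.09, beside 0.03. Without replicate 1 of NANOG-FKBP the test called 0 lower at 2 h, 0 at 6 h and 12 at 24 h. Without replicate 3 it called 30 lower at 24 h, and without replicate 2 59; a lone NT library is there assumed to vary like the other groups. In simulated counts of this comparison with 100 OCRs lowered 4-fold and 100 lowered 2-fold, the test recovered 97 and 26. Far fewer OCRs changed there than the 3762 called lower in the data, which makes the adjusted threshold stricter. The simulation therefore does not say how often a 2-fold loss in single OCRs was missed in the data.

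The median ratio of the late-OCT4 OCRs to the NANOG-FKBP NT mean was 1.06, 1.15 and 1.01 in the libraries at 2 h, 0.971, 1.05 and 1.01 at 6 h and 0.903, 0.953 and 0.914 at 24 h. At NT the 2 libraries themselves were at 1.05 and 0.949, so that the values at 24 h reached up to the lower NT library. In 223 OCRs (18.7%) all 3 libraries at 24 h were below both NT libraries, beside 15.1% of the 60343. Chromosome 8 took 5.73% to 7.39% of the counts of NANOG-FKBP libraries, and 55 of the 59 OCRs of the set on it were not called. Without these 59, 51 OCRs were lower at 24 h and 4 higher. Across the 1192, the OCT4-FKBP and NANOG-FKBP 24H/NT ratios had a Spearman correlation of 0.053, a description over OCRs that share their libraries.

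The 55 that were lower after NANOG depletion had median ratios to NT of 0.602, 0.532 and 0.374 at 2, 6 and 24 h. These 3 ratios share the NT libraries of the contrast that chose these OCRs, so no time of loss is read from them. In OCT4-FKBP their median was 0.901 of NT at 6 h. Their median level in NANOG-FKBP NT was 10.3 CPM, beside 6.34 CPM in the other 1137. A SOX match was present over the whole peak, whose width the share depends on, in 49.1% of the 55, 33.6% of the other 1137 and 38.6% of the 60343, a KLF match in 49.1% and 54.9% of the 55 and the 1137, and an ESRRB and NR5A2 match in 23.6% and 16%.

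The smallest p among them belonged to an OCR 47960 bp from a start of Prdm1 (chr10:44408662-44410613), which codes for BLIMP1, a transcriptional repressor needed to specify germ cells. In NANOG-FKBP it held 39.0 and 34.3 CPM at NT, 18.1, 16 and 24.6 at 2 h, 17, 14.1 and 21.2 at 6 h and 9.03, 7.84 and 11 at 24 h (24 h log2 fold change -1.94, standard error 0.22, adjusted p = 2.33e-07 in edgeR's test). No library after dTAG-13 reached the NT level. In OCT4-FKBP the same OCR had 23.5 and 24.4 CPM at NT, 20.2 and 23.4 at 6 h and 5.28 and 10.3 at 24 h, and in SOX2-FKBP 37.1 and 34.0 at NT and 34.1 and 32.1 at 24 h. The next, by the start of the ubiquitin ligase gene Rnf181 (chr6:72359981-72361362), had 26.0 and 23.4 CPM in NANOG-FKBP NT and 6.13, 3.92 and 6.74 at 24 h (log2 fold change -2.05, standard error 0.28, adjusted p = 6.08e-06). The third, 35872 bp upstream of Rpl11 (chr4:136088826-136090668), had 14.8 and 12.2 at NT and 3.15, 6.53 and 3.70 at 24 h (log2 fold change -1.79, standard error 0.26, adjusted p = 2.09e-05).

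In the other direction, the OCR 7025 bp upstream of Ubald2 (chr11:116426334-116427494) rose from 20.2 and 16.2 CPM in NANOG-FKBP NT to 38.6, 53.1 and 39.1 at 24 h (log2 fold change 1.26, standard error 0.23, adjusted p = 0.00054 in edgeR's test). In OCT4-FKBP it had 17.4 and 16 CPM at NT and 7.18 and 8.87 at 24 h. The values at 24 h thus lay above NT in NANOG-FKBP and below NT in OCT4-FKBP. The other 3 that passed the test as higher did so narrowly. Those in Acbd4 and Zfp704 had adjusted p = 0.0418 and 0.0472 in the same test, and the remaining one had a p no smaller than that in Zfp704. Of the 4 higher calls the number was 1 with DESeq2, 2 with size factors, 1 with no count filter and 0 to 1 with a replicate left out.

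Libraries of the 3 lines held 1817191 to 17575631 counts in peaks, with 1.42% to 17.6% in mitochondrial peaks, and the shallowest were of NANOG-FKBP. Replicates differed by more than sampling noise in every group. Among promoters of 6 embryonic stem cell marker genes, the mean OCT4-FKBP level at NT and 24 h was 36.55 and 14.65 CPM at Nanog, 36.7 and 38.34 at Sox2, 33.57 and 31.77 at Zfp42 and 30.87 and 42.06 at Klf4. At Esrrb it was 64.04 and 25.25, which includes the late-OCT4 OCR at its start, and no peak of the table lay within 500 bp of a Pou5f1 start. Summed promoter levels of 14 primitive endoderm genes in OCT4-FKBP were 286 to 289 CPM at NT and 334 to 417 at 24 h. Those of 16 trophectoderm genes were 364 to 401 and 387 to 418, and those of 17 formative and primed genes 432 to 455 and 452 to 566. A peak of the table lay within 500 bp of a start at 13 of the 14, 14 of the 16 and 14 of the 17 genes of these lists, at NT levels down to 1.51 CPM at Plac1 and 1.88 at Hnf4a. In SOX2-FKBP, where the rule kept the set open, the primitive endoderm sums were 196.2 to 204.7 CPM at NT and 212.5 to 251.7 at 24 h. Those of trophectoderm were 241 to 244.5 and 293.4 to 293.8, and of formative and primed genes 363.9 to 388.5 and 384.4 to 432.1. Higher sums at 24 h were therefore not particular to OCT4-FKBP. The part of other cell states in the loss was not tested. Accessibility does not measure the tagged protein, whose loss was not checked here.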

How the data were processed

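ATACseq measures where the Tn5 transposase can cut. Paired-end reads were aligned by the authors to mm10 with BWA 0.7.17-r1188, filtered and cleared of duplicates with SAMtools 1.10 and Picard 2.12.0 (versions as in the submitters' processing notes), and peaks were called with MACS2 on merged libraries. The deposited counts are whole fragments per peak, not normalized; the deposited peak list gives the authors' fold enrichment, a ratio over local background. The count table covers 31 of the 45 samples of the series; 14 were not analysed here.

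Peaks were annotated with GENCODE vM21, and sequence was read from the mm10 RefSeq genome. The 27 libraries at NT, 2, 6 and 24 h were fitted together in edgeR 4.0.16 (TMM, quasi-likelihood, count filter as by the authors, above 10 in over 6 libraries), tested on simulated data, with DESeq2 1.42.0 as an alternative. Standard errors are the log2 fold change divided by the square root of F. Same-numbered libraries deviated together in OCT4-FKBP (correlation 0.31 to 0.59) and SOX2-FKBP (0.10 to 0.42). Between NT and treated NANOG-FKBP libraries they did so in replicate 1 (0.10 to 0.31) but not in replicate 2 (-0.14 to -0.09). In NANOG-FKBP, chromosome 8 held 7.39% of counts in NT replicate 2 and 6.66% to 6.68% in treated replicate 2. In treated replicate 3 it held 7.32% to 7.35%, so the numbers may not pair these libraries. Alternatives were other scalings, count filters, the replicate block and leaving out each replicate.

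The OCRs, gene lists, motifs and tests were chosen with earlier results of these data known. Named OCRs are the 6 with the highest NT CPM, the 6 with the lowest 24H/NT above 10 CPM (1 is not reported here), the nearest within 100 kb of each listed gene, the 4 highest within 500 bp of a coding start, the 3 with the smallest p in either direction after NANOG depletion, and those at the limits. Sequence windows are the 8 of these with a match nearest to the summit.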

Additional observations from a re-analysis of the deposited data

Results flagged for a closer look

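At 6 h of dTAG-13 the late-OCT4 OCRs lay on opposite sides of NT in the OCT4 and SOX2 lines. The mean of the library medians of the ratio to NT was 0.868 in OCT4-FKBP, with both libraries below 1, and 1.078 in SOX2-FKBP, with both above 1. The same mean over all OCRs of at least 4 CPM was 0.992 and 1.034, and over steady OCRs 1.015 and 1.064, so that medians above 1 in SOX2-FKBP were not particular to the set. The difference was not tested, both values share NT libraries with the rule that chose the OCRs, and the line cannot be told apart from the depleted factor.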

How the results depend on the processing

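Leaving out replicate 1 or 2 of OCT4-FKBP and SOX2-FKBP gave 1062 and 1960 late-OCT4 OCRs, of which 504 and 738 were among the 1192; requiring every condition in each replicate gave 278, and the limit at 24 h in both libraries, chosen after seeing the data, 613. TMM, size factors, totals with mitochondrial peaks, scaling within chromosomes, GC correction and leaving out gene ends gave 815 to 1175. The median NANOG-FKBP 24H/NT was 0.891 to 0.999 and the median OCT4-FKBP 6H/NT 0.842 to 0.905 with a replicate left out. The median SOX2-FKBP 2H/NT was 1.181 to 1.183 with a replicate left out and 1.167 with TMM, against 1.176. The replicate block called 28, 45 and 102 OCRs lower after NANOG depletion at 2, 6 and 24 h (1.98%, 2.27% and 3.67% of all OCRs tested) and 24, 9 and 18 higher (0.326%, 0.401% and 1.16%), although the numbers pair only some of those libraries, and 135 lower and 55 higher at 6 h after OCT4 depletion. It called 0 for SOX2-FKBP 6 h against 2 h. With at least 10 counts in every library only 555 OCRs were tested, and 2, 3 and 15 were lower at 2, 6 and 24 h of NANOG depletion, 2 higher, and 539 lower at 24 h of OCT4 depletion. DESeq2 called 10 lower at 6 h of OCT4 depletion, and total counts 39. Higher after 24 h of NANOG depletion were 1 with DESeq2, 2 with size factors and 1 with no count filter. Leaving out a replicate gave 0 to 7, 0 to 12 and 12 to 59 lower and 0 to 1 higher after NANOG depletion, and 2 to 6 and 433 to 577 lower at 6 and 24 h of OCT4 depletion. The SOX2-FKBP 6 h against 2 h counts stayed at 0 in every setting. The NANOG-FKBP libraries included the shallowest, with 1817191 counts, which limits what that comparison could detect.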
